A study of Homo sapiens with 8 samples.

Results

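The genes for 10 transcription factors of the lung and foregut were followed through a bleomycin dose series: NKX2-1, FOXA1, FOXA2, GATA6, SOX2, SOX9, ETV4, ETV5, FOXP1 and FOXP2. They were taken by symbol from 46427 symbols in the deposited tables, and all 10 were found. The choice was made with earlier results of these data known. All 10 also passed the filter on low counts, which kept 18303 genes, and each reached its cutoff in all 8 libraries. The cells came from H7, an established human embryonic stem cell line, were wild type, and carry the label of differentiated type 2 alveolar cells. They had been led through endoderm, foregut and lung progenitor stages and were grown on inserts at an air-liquid interface. There were 4 groups of 2 libraries: cells left untreated, and cells that had bleomycin, a drug that breaks DNA and is used to model lung fibrosis, laid over them at 24, 240 or 480 µg/ml for 24 hours. All groups come from 1 stem cell line, and the labels name neither a vehicle for the untreated cells nor separate cultures for the 2 libraries of a group. The stock solution of bleomycin is labelled as 10 µg/ml, weaker than every dose used.

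NKX2-1 marks the respiratory part of the foregut in the embryo and later switches on surfactant genes in type 2 alveolar cells. FOXA1, FOXA2 and GATA6 open and activate endodermal genes in lung, gut and liver alike, so they do not mark the lung by themselves. SOX2 marks the proximal airway and SOX9 the growing distal tips of the lung buds, where fibroblast growth factor (FGF) signalling through the kinase ERK switches on ETV4 and ETV5. FOXP1 and FOXP2 are repressors of the developing airway and alveolar epithelium.

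Promoter windows show the sequence at the starts of the genes that set the lung and airway programmes. They were taken from the RefSeq table of build GRCh38.p14, reach from 250 bases before to 50 bases after an annotated start site, and are written 5′ to 3′ on the gene's own strand. The table held windows for 6 of the 10 genes, and those of NKX2-1, FOXA1 and SOX2 are shown because NKX2-1 and SOX2 changed at the highest dose and FOXA1 at the middle dose. Capitals mark matches on either strand to the forkhead motif TGTTTAC, the SOX motif ACAAAG, the NKX2-1 motif CTCAAG, the CCAAT box, the CHR motif TTTGAA of cell cycle genes, the ETS motif CCGGAA and the motif AGATAA of GATA factors. NKX2-1 has a pair of windows on the minus strand, at chr14:36520183-36520482 and chr14:36519507-36519806. The FOXA1 window is chr14:37595200-37595499, also on the minus strand, and the SOX2 window is chr3:181711675-181711974 on the plus strand.
NKX2-1 window 1: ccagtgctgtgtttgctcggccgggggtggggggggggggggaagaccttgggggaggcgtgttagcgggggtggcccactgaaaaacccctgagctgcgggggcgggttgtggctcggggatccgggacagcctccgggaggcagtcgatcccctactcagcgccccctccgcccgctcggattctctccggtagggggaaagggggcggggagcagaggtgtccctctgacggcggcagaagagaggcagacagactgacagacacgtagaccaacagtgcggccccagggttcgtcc
NKX2-1 window 2: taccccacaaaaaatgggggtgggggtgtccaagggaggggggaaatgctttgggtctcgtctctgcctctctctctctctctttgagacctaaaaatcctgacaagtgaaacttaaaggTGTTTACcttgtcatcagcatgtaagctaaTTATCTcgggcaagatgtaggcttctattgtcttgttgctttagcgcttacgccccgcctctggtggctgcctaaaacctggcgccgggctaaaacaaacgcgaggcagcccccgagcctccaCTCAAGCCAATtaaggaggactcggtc
FOXA1: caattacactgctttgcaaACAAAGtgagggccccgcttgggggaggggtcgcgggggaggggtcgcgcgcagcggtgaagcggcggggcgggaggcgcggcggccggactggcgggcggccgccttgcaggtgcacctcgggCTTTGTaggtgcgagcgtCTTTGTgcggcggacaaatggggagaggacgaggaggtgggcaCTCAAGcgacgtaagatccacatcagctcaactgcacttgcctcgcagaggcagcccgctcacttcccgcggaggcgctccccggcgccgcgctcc
SOX2: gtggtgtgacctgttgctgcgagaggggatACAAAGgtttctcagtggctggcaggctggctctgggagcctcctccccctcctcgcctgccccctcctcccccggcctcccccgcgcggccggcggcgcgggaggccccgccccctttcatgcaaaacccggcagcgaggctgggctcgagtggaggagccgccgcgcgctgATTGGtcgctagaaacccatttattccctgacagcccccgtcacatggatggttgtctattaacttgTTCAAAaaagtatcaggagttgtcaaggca
The first NKX2-1 window held none of these letters. The second, which RefSeq also annotates as a start of the neighbouring gene SFTA3, held the forkhead letters at position -130 from the start site, the GATA letters on the opposite strand at -100, and the NKX2-1 and CCAAT letters side by side, without overlap, at 24 and 30. The FOXA1 window held the SOX letters at -231, and on the opposite strand at -107 and -89, and the NKX2-1 letters at -46. The SOX2 window held the SOX letters at -220, and on the opposite strand the CCAAT letters at -47 and the CHR letters at 21. Among all 35116 windows of that table, 3.42% held the forkhead letters, 16.1% the SOX, 12.4% the NKX2-1, 34.6% the CCAAT, 15.2% the CHR, 17.2% the ETS and 10.3% the GATA letters. A match only says that these letters are in the window, not that a factor binds there.

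Libraries held 53431773 to 67715984 counts. The 2 libraries of 480 µg/ml lay further apart than those of other groups, with an SD of 0.637 for the log2 ratio between them. Library 2 of 480 µg/ml also had the most mitochondrial messenger RNA, 2.33% of counts against 0.775% to 1.52% in the other 7 libraries, and the most ribosomal RNA, 3.30% against 1.21% to 2.93%. Checked against type 2 markers, the cells went partly against their label: 7 of 10 markers passed the filter, but SFTPC, the most specific one, had 0 counts in 6 libraries and no more than 7 in the other 2. Liver-type genes were abundant, with 6 markers summing to 51737 and 53210 CPM (counts scaled to a common effective library size) in untreated cells. In such bulk RNA, fewer cells of a type and less of the RNA per cell cannot be told apart.

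By level, the genes formed an abundant set, a middle set and a pair of scarce genes. TPM, which corrects for gene length, allows levels of different genes to be compared, and means ± SD over n = 2 libraries are given. In untreated cells ETV4 stood highest at 130.4 ± 5.83 TPM and SOX9 next at 128 ± 4.34 TPM, with overlapping libraries. GATA6 at 107 ± 0.535 TPM and FOXA1 at 106 ± 4.64 TPM followed, and their libraries overlapped as well. The middle set was FOXA2 at 39.9 ± 1.36, FOXP1 at 35.6 ± 0.733, ETV5 at 24.0 ± 2.73 and SOX2 at 18.8 ± 1.75 TPM, in that order and without overlap. FOXP2 had 5.09 ± 0.349 TPM, and NKX2-1 was last with 0.960 ± 0.181 TPM, below the median of 7.58 TPM over the genes tested. In untreated cells NKX2-1 sat at the 25.2nd percentile of tested genes and ETV4 at the 94.3rd.

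The order differed at 480 µg/ml, where ETV4 came 6th. FOXA1 at 123 ± 15.9 TPM and GATA6 at 114 ± 14.98 TPM then led, with overlapping libraries. SOX9 at 82.4 ± 23.0, FOXA2 at 40.0 ± 1.99 and FOXP1 at 38.6 ± 14.7 TPM followed, the last pair overlapping. TPM and scaled counts did not always give the same ratio between libraries: FOXP1 had 48.9 and 28.2 TPM at 480 µg/ml, where it had 116 and 90.5 CPM. The SD of a TPM value includes that difference, whose cause was not tested. ETV4 stood at 20.7 ± 2.39 TPM, at the 70th percentile, and NKX2-1 stayed last at 0.278 TPM in both libraries, at the 12.4th percentile.

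**Figure D1:**
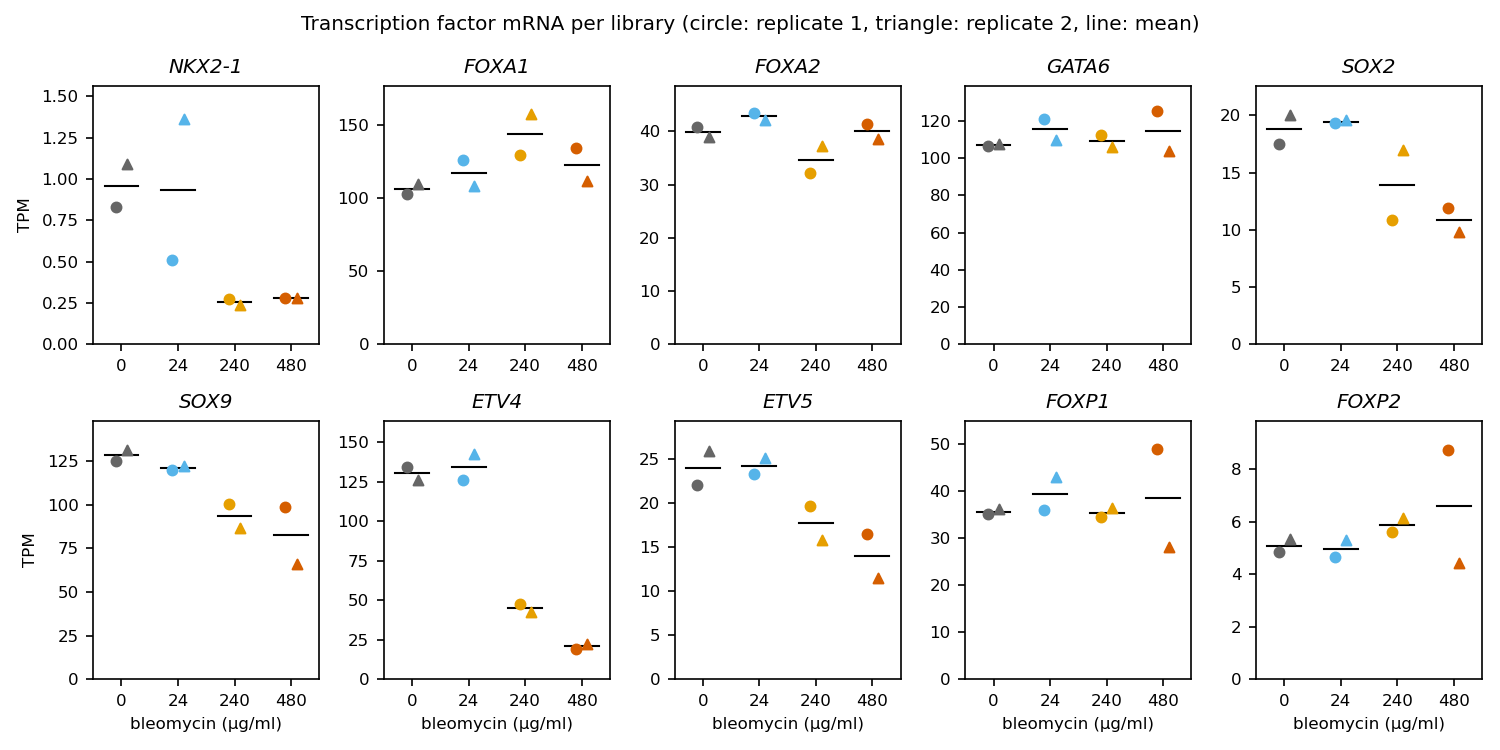
Level of each gene in TPM (vertical axes, starting at 0) against bleomycin dose in µg/ml (horizontal axes), with a circle for replicate 1, a triangle for replicate 2 and a line for the mean of the 2. ETV4 falls to 19.0 and 22.3 TPM at 480 µg/ml, against 135 and 126 TPM in untreated cells, while GATA6 and FOXA2 stay near their untreated values.

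NKX2-1, a marker of lung endoderm, fell at 480 µg/ml and was scarce throughout. Which cells held its RNA cannot be told from bulk RNA. NKX2-1 had 46 and 59 counts in untreated libraries and 33 and 87 at 24 µg/ml. The upper doses gave 15 and 16 counts at 240 and 15 and 19 at 480 µg/ml. All 4 libraries of the upper doses lay below all 4 of the lower ones, and the 2 libraries of 24 µg/ml lay far apart. The log2 fold change was -1.68 ± 0.48 (SE) at 480 µg/ml (edgeR adjusted p = 0.0301), or 3.21-fold lower than untreated. At 240 µg/ml it was -1.74 ± 0.49, which just missed the threshold of 0.05 (edgeR adjusted p = 0.0532) and passed it in 7 of 16 other settings. The call at 480 µg/ml was lost without either untreated library or either 480 µg/ml library (edgeR adjusted p = 0.0576 to 0.133), and with limma on log2(TPM + 1), where so low a gene can move little (-0.61, limma adjusted p = 0.0687).

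Of 13 genes known as NKX2-1 or FOXA targets in lung 10 were tested. At 480 µg/ml 1 rose and 2 fell, where 13.9% of all genes were called higher and 13.9% lower, so the counts are near those shares. The median log2 fold change was -0.31 against 0.01 over all genes tested. SLC34A2, a phosphate transporter gene used here as a type 2 marker, had 1.30 and 1.57 CPM at 480 µg/ml, against 14.1 and 15.3 CPM untreated. Its log2 fold change was -3.35 ± 0.32 (edgeR adjusted p = 0.00029). It was the one gene of the list that also fell at 240 µg/ml, by 2.26 (edgeR adjusted p = 0.00424). SFTPB, a surfactant protein gene, had 5.21 and 7.73 CPM at 480 µg/ml, against 14.9 and 16.9 CPM untreated, and fell by 1.30 ± 0.40 (edgeR adjusted p = 0.0393). ABCA3, the lipid pump of lamellar bodies, rose by 1.15 ± 0.16 (edgeR adjusted p = 0.00154), with 25.6 and 32.2 CPM at 480 µg/ml against 11.9 and 14.2 CPM untreated. LAMP3, a lamellar body membrane protein gene, stood at 0.70 ± 0.26 and was not called (edgeR adjusted p = 0.08).

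The 2 libraries of 24 µg/ml differed in some lung genes, chosen here after their values were seen. Replicate 2 held more counts than replicate 1 for NKX2-1, with 87 and 33, for SFTPB, with 2137 and 749, and for the secretory cell gene SCGB3A2, with 265 and 107. SFTA3 had 52 and 12. Other genes of lung epithelium were level or lower in replicate 2, with 96 and 94 counts for LAMP3, 9703 and 11881 for ID2 and 5688 and 7568 for CEBPA. The hepatic markers also differed, with sums of 39092 CPM in replicate 2 and 56677 CPM in replicate 1. SFTA3 lies 2563 bases from NKX2-1 on the same strand in the GENCODE annotation, whereas in RefSeq it reaches into NKX2-1, so the 2 genes may share reads. For NKX2-1 the untreated values lay between these 2 libraries, and its log2 fold change at 24 µg/ml was -0.06 ± 0.44 (edgeR adjusted p = 1). Without replicate 1 it was 0.46, and without replicate 2 it was -0.89. SFTA3 fell in no comparison (-1.43 ± 1.01 at 480 µg/ml, edgeR adjusted p = 0.322). The summed level of the 10 type 2 markers was 162 to 164 CPM in untreated libraries, 162 to 177 at 24, 112 to 114 at 240 and 94.7 to 103 at 480 µg/ml. Most of that sum came from 1 gene, LPCAT1, a surfactant lipid enzyme gene, with 60.2 ± 0.0770 CPM at 480 µg/ml against 118 ± 2.39 CPM untreated (SD, n = 2 each), while ABCA3 went the other way. The part of these markers in the results was not tested.

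FOXA1, FOXA2 and GATA6, the endodermal factors, were not called lower in any comparison. FOXA1, a pioneer factor that opens closed chromatin, had 180 and 180 CPM untreated, 196 and 180 at 24, 237 and 260 at 240, and 214 and 217 CPM at 480 µg/ml. In CPM the 4 libraries of the upper doses were above all 4 others. On the TPM scale they overlapped, with 112 TPM in replicate 2 of 480 µg/ml and 126 TPM in replicate 1 of 24 µg/ml. FOXA1 rose at 240 µg/ml by 0.47 ± 0.11 on the log2 scale, which is 1.38-fold (edgeR adjusted p = 0.0336). At 480 µg/ml the value was 0.26 ± 0.11 and was not called (edgeR adjusted p = 0.115). FOXA1 is also used in liver cells, whose 6 markers summed to 51737 to 53210 CPM in untreated libraries, 39092 to 56677 at 24, 74961 to 81735 at 240 and 62436 to 66887 CPM at 480 µg/ml. The sum too was highest at 240 µg/ml, most of it from AFP, with 43349 ± 1083 CPM untreated (SD, n = 2). By mean CPM, AFP, ALB and APOA1 were highest at 240 µg/ml, and FGB, TTR and HNF4A at 480 µg/ml. The part of these markers in the FOXA1 result was not tested. The call at 240 µg/ml ended in 9 of 16 other settings, among them limma on TPM (limma adjusted p = 0.126 and 0.192) and each omission of a library other than those of 480 µg/ml (edgeR adjusted p = 0.0706 to 0.247). TTC6, whose gene overlaps FOXA1 on the opposite strand, had 3.10 to 5.69 CPM in all libraries and was called in no comparison.

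FOXA2, the close relative of FOXA1, had 43.3 and 48.5 CPM at 480 µg/ml and 46.6 and 41.6 CPM in untreated cells, overlapping. Its log2 fold change of 0.06 had a 95% interval of -0.24 to 0.36 (edgeR adjusted p = 0.774). At 240 µg/ml FOXA2 had 38.0 and 44.0 CPM, below both libraries of 24 µg/ml, which had 48.6 and 45.3 CPM. That difference of -0.20 ± 0.13 on the log2 scale was not called (edgeR adjusted p = 0.395). GATA6, a zinc finger factor needed for lung branching, had 187 and 187 CPM at 480 µg/ml and 174 and 164 CPM in untreated cells. Its value of 0.15 had an interval of -0.12 to 0.41 (edgeR adjusted p = 0.375). A change of either gene by 1.5-fold or more lies outside these intervals. On the TPM scale the GATA6 libraries of the 2 groups overlapped, with 125 and 104 TPM at 480 µg/ml and 107 and 107 TPM untreated.

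SOX2 and SOX9, the factors of the airway and of the distal bud tips, both fell at 480 µg/ml. SOX2 had 19.8 and 21.2 CPM untreated, 21.4 and 20.9 at 24, 12.8 and 19.9 at 240, and 12.3 and 12.3 CPM at 480 µg/ml. In CPM the 2 libraries of 480 µg/ml agreed within 1 CPM and lay below all others, just under replicate 1 of 240 µg/ml. Replicate 2 of 240 µg/ml lay near the untreated libraries. On the TPM scale the 480 µg/ml libraries, at 11.9 and 9.84 TPM, lay on either side of replicate 1 of 240 µg/ml, at 10.9 TPM. SOX2 fell by 0.74 ± 0.19 on the log2 scale at 480 µg/ml, 1.67-fold (edgeR adjusted p = 0.0203), and stood at -0.32 ± 0.19 at 240 µg/ml (edgeR adjusted p = 0.311). SOX9 had 221 and 217 CPM untreated, 207 and 204 at 24, 185 and 159 at 240, and 160 and 129 CPM at 480 µg/ml. It fell by 0.60 ± 0.14, 1.52-fold (edgeR adjusted p = 0.0119), and stood at -0.35 ± 0.14 at 240 µg/ml (edgeR adjusted p = 0.14). Without either untreated library neither gene was called at 480 µg/ml (edgeR adjusted p = 0.0733 to 0.11), nor with limma on log2(TPM + 0.1) (limma adjusted p = 0.0549 for SOX2 and 0.0665 for SOX9). SOX9 also lost its call when only the 2 groups were fitted (edgeR adjusted p = 0.056).

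Both SOX genes are also expressed outside the lung, SOX2 in pluripotent and neural cells. The pluripotency markers summed to 4.89 to 5.26 CPM at 480 µg/ml and 32.2 to 36.8 CPM in untreated libraries, most of it from LIN28A, an RNA-binding protein gene. POU5F1, the defining pluripotency factor gene, had 0 counts in all 8 libraries, and NANOG had at most 3. The 6 neural markers summed to 38.5 to 56.3 CPM at 480 µg/ml and 76.7 to 76.9 CPM in untreated libraries. Of these markers 5 passed the filter. NES made up most of the untreated sum, with 11.7 ± 0.947 CPM at 480 µg/ml against 50.04 ± 1.80 CPM untreated (SD, n = 2 each). By mean, TUBB3 went the other way, with 35.1 ± 11.6 against 24.99 ± 2.37 CPM, so the sum does not stand for all 6 markers. SOX1 and SOX3, the nearest relatives of SOX2, had at most 76 counts in any library. SOX1 had 7 and 5 counts at 480 µg/ml, against 27 and 34 untreated, and passed the filter only through the groups where it is higher, so no test is given for it. Their part in the fall of SOX2 was not tested. The 4 markers of airway basal cells, which use SOX2, summed to at most 0.21 CPM.

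ETV4 had the largest change of the 10 genes at 480 µg/ml and was the one that was called at each step above 24 µg/ml. This ETS factor, which FGF signalling induces in lung bud tips, had 139 and 121 CPM untreated, 128 and 138 at 24, 50.9 and 44.9 at 240, and 17.8 and 25.0 CPM at 480 µg/ml. The libraries of the lower doses overlapped, those of 240 µg/ml lay wholly below them, and those of 480 µg/ml lay lower still. ETV4 was 2.71-fold lower than untreated at 240 µg/ml, a log2 fold change of -1.44 ± 0.17 (edgeR adjusted p = 0.00303). At 480 µg/ml it was 6.07-fold lower, -2.60 ± 0.18 (edgeR adjusted p = 0.000107), which ranked it 22 by p among 18303 genes. Between 240 and 24 µg/ml the value was -1.48 ± 0.17 (edgeR adjusted p = 0.00698), and between 480 and 240 µg/ml -1.16 ± 0.17 (edgeR adjusted p = 0.0402). At 480 µg/ml against untreated ETV4 kept its call in all 16 other settings, between -2.86 and -2.39. At 240 µg/ml against untreated the call ended without 240 µg/ml replicate 2 (edgeR adjusted p = 0.0535), and against 24 µg/ml without either 240 µg/ml library or 24 µg/ml replicate 2 (edgeR adjusted p = 0.0548 to 0.0926). The step between 480 and 240 µg/ml lost its call in 10 of 16, where the value was between -1.25 and -1.07.

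ETV5, its closest relative, moved the same way by less. It had 40.4 and 44.5 CPM untreated, 41.8 and 43.5 at 24, 37.6 and 30.1 at 240, and 27.8 and 23.2 CPM at 480 µg/ml. Both upper doses lay below the untreated libraries. ETV5 fell by 0.74 ± 0.15 at 480 µg/ml, 1.67-fold (edgeR adjusted p = 0.0074), and stood at -0.33 ± 0.15 at 240 µg/ml (edgeR adjusted p = 0.197). Without untreated replicate 2 the call at 480 µg/ml was lost (edgeR adjusted p = 0.0682). DHX8, a helicase gene that overlaps ETV4 on the opposite strand, had 47.6 and 56.9 CPM at 480 µg/ml and 48.5 and 45.8 CPM untreated, and was not called (edgeR adjusted p = 0.418). DGKG, a kinase gene that overlaps ETV5 on the same strand, had at most 30 counts in any library.

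Among the FGF ligand and receptor genes around ETV4, 11 of 14 were tested, and at 480 µg/ml 4 fell and 1 rose, where 13.9% of all genes were called in each direction. Their median was -0.53 on the log2 scale. FGF9, an epithelial ligand of the early lung, had 0.579 and 0.729 CPM at 480 µg/ml, against 2.73 and 2.73 CPM untreated, and fell by 2.06 ± 0.24 (edgeR adjusted p = 0.000661). FGF2 fell by 1.02 ± 0.21 (edgeR adjusted p = 0.00825), and the receptor gene FGFR3 by 0.53 ± 0.14 (edgeR adjusted p = 0.0214). KLB, the coreceptor for FGF19, rose by 0.80 ± 0.19 (edgeR adjusted p = 0.0136). FGFR2, the receptor gene that carries FGF10 signals in lung buds, was higher at 240 µg/ml by 0.79 ± 0.18 (edgeR adjusted p = 0.0265). At 240 µg/ml FGF9 fell as well, by 1.45 (edgeR adjusted p = 0.00855), so 1 of the 11 rose and 1 fell, where 5.16% of all genes were called higher and 5.17% lower.

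Of 16 feedback and ERK output genes, all tested, 6 fell and 2 rose at 480 µg/ml, with a median of -0.40, where 13.9% of all genes were called in each direction. The 2 that rose are near that share. DUSP5, a phosphatase that turns ERK off, had 40.4 and 50.1 CPM at 480 µg/ml, against 158 and 130 CPM untreated, and fell by 1.67 ± 0.17 (edgeR adjusted p = 0.000368). CCND1, the cyclin D1 gene, fell by 1.41 ± 0.14 (edgeR adjusted p = 0.00038), and SPRY2, a feedback inhibitor of receptor kinases, by 0.87 ± 0.12 (edgeR adjusted p = 0.00145). EGR1, an immediate early gene that ERK also induces, rose by 1.23 ± 0.17 (edgeR adjusted p = 0.00123), with 14.5 and 18.3 CPM at 480 µg/ml against 6.76 and 7.18 CPM untreated. At 240 µg/ml 3 of the 16 fell, DUSP5, CCND1 and SPRY2, and EGR1 rose, beside 5.17% and 5.16% of all genes.

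**Figure D2:**
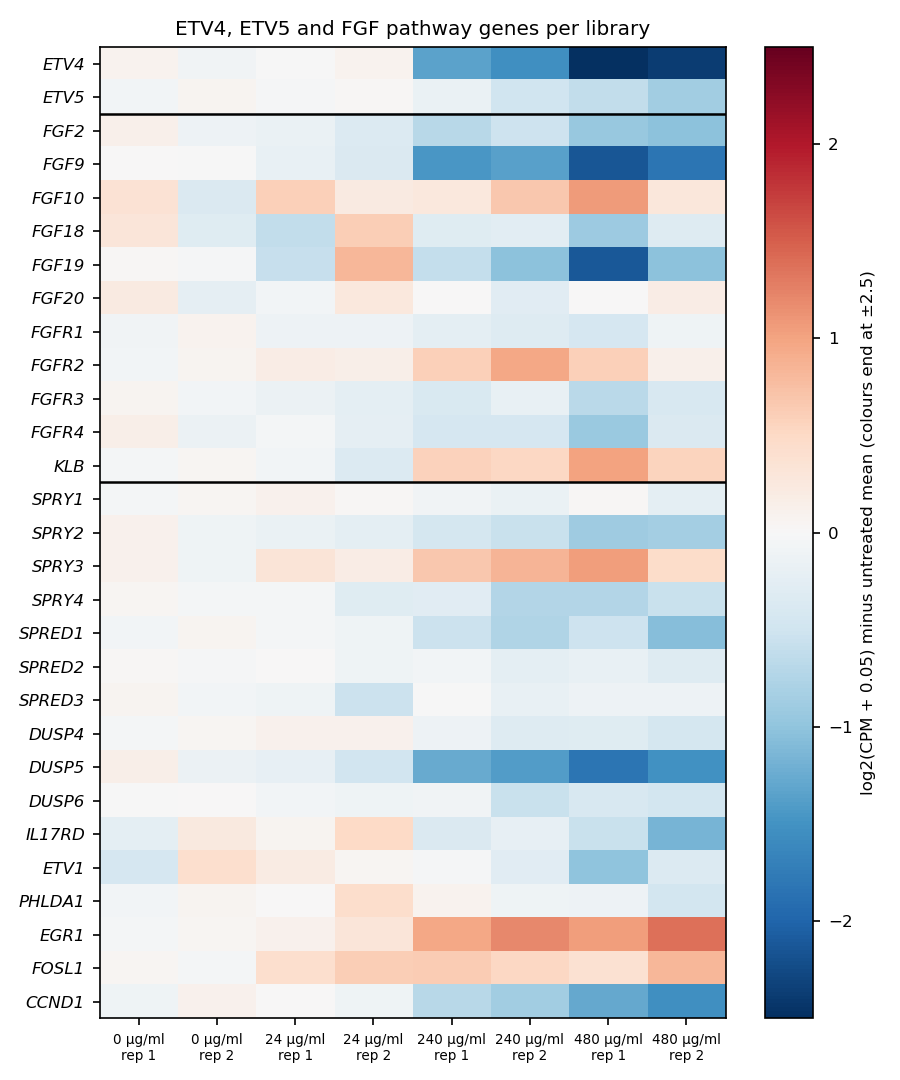
Heat map of ETV4 and ETV5 (top block), 11 tested FGF ligand and receptor genes (middle) and 16 feedback and ERK output genes (bottom) in the 8 libraries, ordered by dose; colour is log2(CPM + 0.05) minus the mean of the untreated libraries, blue lower and red higher, with colours ending at 2.5. ETV4, FGF9, DUSP5 and CCND1 are blue in all 4 libraries of 240 and 480 µg/ml, and EGR1 is red in them.

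FOXP1 and FOXP2, the forkhead repressors, were not called in any comparison, and their libraries of 480 µg/ml disagreed. FOXP1 had 89.1 and 92.7 CPM untreated, 88.6 and 95.1 at 24, 101 and 102 at 240, and 116 and 90.5 CPM at 480 µg/ml. FOXP2 had 13.6 and 14.4 CPM untreated, 13.1 and 14.3 at 24, 16.4 and 18.4 at 240, and 23.2 and 14.1 CPM at 480 µg/ml. For both genes replicate 1 of 480 µg/ml was the highest library of all, and replicate 2 lay within the range of untreated and 24 µg/ml libraries. The log2 fold changes at 480 µg/ml were 0.18 ± 0.14 for FOXP1 (edgeR adjusted p = 0.352) and 0.41 ± 0.21 for FOXP2 (edgeR adjusted p = 0.185). Without replicate 2 they were 0.35 (edgeR adjusted p = 0.0156) and 0.73 (edgeR adjusted p = 0.00246), and without replicate 1 they were -0.02 and -0.01. Replicate 2 is also the library with the larger shares of mitochondrial and ribosomal RNA; their part in the split was not tested.

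**Figure D3:**
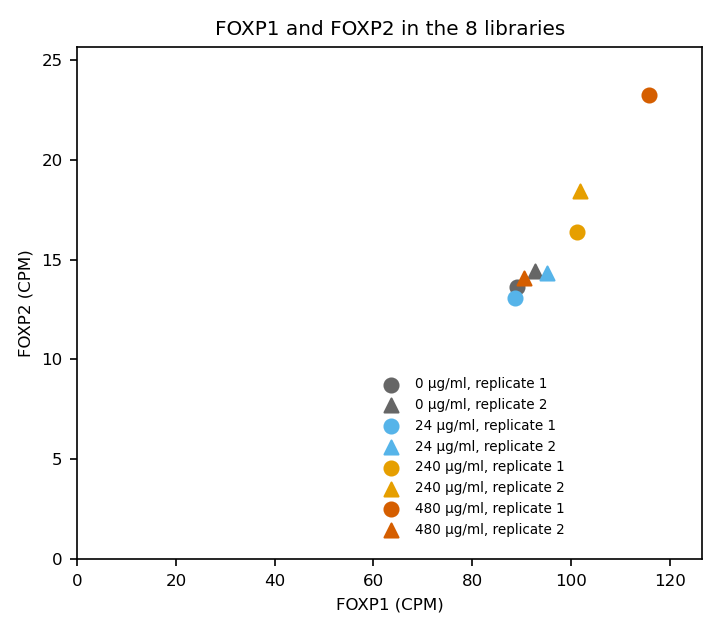
FOXP2 against FOXP1, both in CPM, 1 point for each of the 8 libraries, coloured by dose, with circles for replicate 1 and triangles for replicate 2. Replicate 1 of 480 µg/ml lies at the upper right with 116 and 23.2 CPM, and replicate 2 of that dose, with 90.5 and 14.1 CPM, lies among the untreated and 24 µg/ml libraries.

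Counted over the 10 genes, the number of calls differed between doses. At 24 µg/ml edgeR called none of them and 0% of all genes; at an unadjusted p under 0.05 there were 0 of the 10 and 605 of all genes, and DESeq2 called 0 of the 10 and 36 in all. At 240 µg/ml 2 of the 10 were called, FOXA1 higher and ETV4 lower, where 10.3% of all genes were called, 5.16% higher and 5.17% lower. At 480 µg/ml 5 of the 10 were called, all lower (NKX2-1, SOX2, SOX9, ETV4 and ETV5), where 27.8% of all genes were called, 13.9% higher and 13.9% lower. Between 240 and 24 µg/ml ETV4 alone of the 10 was called, lower, where 6.83% of all genes were called, 3.34% higher and 3.49% lower. Between 480 and 240 µg/ml it was again ETV4 alone, where 0.257% of all genes were called, 0.0273% higher and 0.229% lower. The median log2 fold change of the 10 was 0.03 at 24, -0.21 at 240 and -0.27 at 480 µg/ml, and that of all genes tested was 0.01 at each dose. Of the 5 genes called at 480 µg/ml, ETV4 alone kept its call in both fits that leave 1 untreated library. NKX2-1 stood at -1.83 without untreated replicate 1 and at -1.53 without untreated replicate 2. Why calls were lost was not tested.

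**Figure D4:**
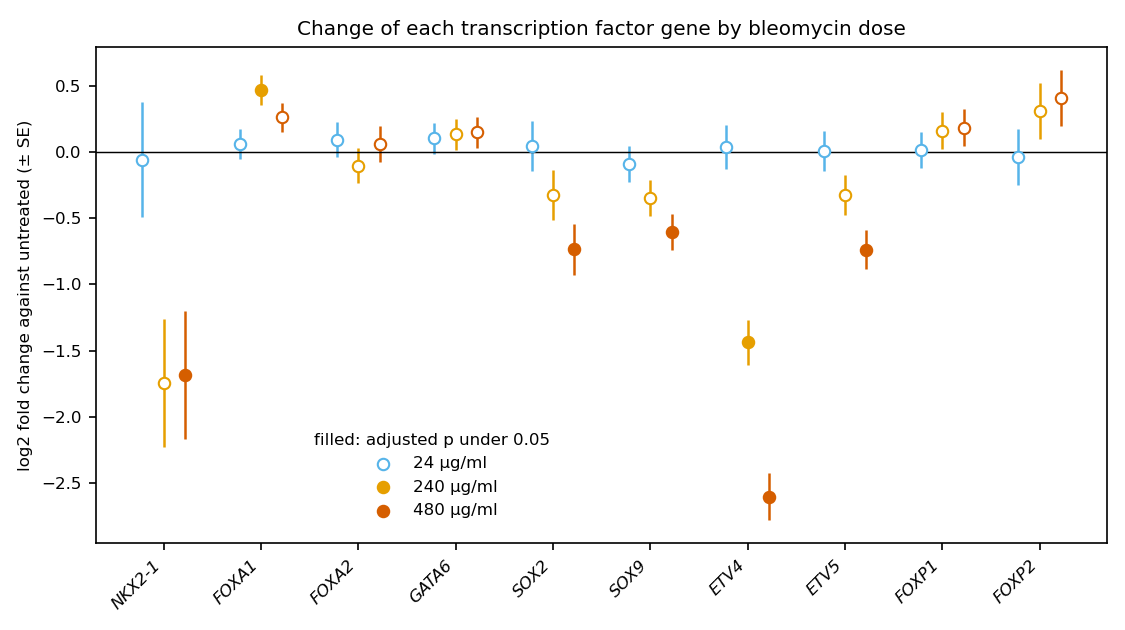
Log2 fold change against untreated cells (points) with its SE (bars) for each gene at 24, 240 and 480 µg/ml, from edgeR over n = 2 libraries a group; filled points have an adjusted p under 0.05. The 10 values at 24 µg/ml lie within 0.11 of 0, and at 480 µg/ml ETV4 reaches -2.60, NKX2-1 -1.68, and SOX2, SOX9 and ETV5 lie between -0.74 and -0.60.

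Of 29 other transcription factors of lung and airway epithelium 27 were tested. Of these 8 fell and 1 rose at 480 µg/ml, with a median of -0.39, where 13.9% of all genes were called in each direction. SOX21, a SOX factor of the airway border, had 4.98 and 3.89 CPM at 480 µg/ml, against 13.8 and 14.7 CPM untreated, and fell by 1.68 ± 0.15 (edgeR adjusted p = 0.000284). SPDEF, which drives goblet cell genes, fell by 2.48 ± 0.33 (edgeR adjusted p = 0.00108), SOX11 by 0.79 ± 0.14 (edgeR adjusted p = 0.00432), and MYCN, which keeps distal lung progenitors dividing, by 0.82 ± 0.17 (edgeR adjusted p = 0.00871). ID2, a marker of the distal tip in mouse, rose by 0.64 ± 0.16 (edgeR adjusted p = 0.0159). SOX21 and TFCP2L1 fell at 240 µg/ml and ID2 rose, beside 5.17% and 5.16% of all genes.

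Of 15 transcription factors of gut and liver 14 were tested, and 3 rose and 1 fell at both 240 and 480 µg/ml. All genes were called higher in 5.16% and 13.9%, and lower in 5.17% and 13.9%, at these doses. The median was 0.14 at 480 µg/ml. CDX2, the intestinal master regulator, had 363 and 415 CPM at 480 µg/ml, against 206 and 190 CPM untreated, and rose by 0.97 ± 0.14 (edgeR adjusted p = 0.00143). HHEX, a factor of liver and foregut, rose by 0.59 ± 0.14 (edgeR adjusted p = 0.0141), and ISX, an intestinal homeobox gene, by 0.40 ± 0.12 (edgeR adjusted p = 0.0392). NR1H4, the bile acid receptor gene, had 0.526 and 0.713 CPM at 480 µg/ml, against 7.34 and 5.96 CPM untreated, and fell by 3.42 ± 0.55 (edgeR adjusted p = 0.00257). The hepatic marker sums are given with FOXA1. The intestinal markers summed to 2652 to 3040 CPM at 480 µg/ml and 2758 to 2766 CPM in untreated libraries, of which CDH17, a cadherin gene, made up most, with 2064 ± 335 CPM at 480 µg/ml and 1906 ± 28.4 CPM untreated (SD, n = 2 each). Within that sum LGALS4, a galectin gene, had 53.0 ± 6.84 CPM at 480 µg/ml against 160.1 ± 18.8 CPM untreated, and FABP1, a fatty acid carrier gene, had 77.0 ± 5.42 against 188 ± 6.08 CPM, opposite to CDX2. The part of these markers was not tested, and no test compared this list with the lung list.

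Relatives of the 10 genes in the forkhead, GATA, SOX and ETS families were tested for 33 of 39. Of these FOXP3 and SOX1 passed the filter only through the groups where they are high and are left out of the count. Among the other 31, 11 fell and 0 rose at 480 µg/ml, with a median of -0.44, where 13.9% of all genes were called in each direction. FOXM1, a driver of mitotic genes, had 20.7 and 22.8 CPM at 480 µg/ml, against 52.6 and 52.2 CPM untreated, and fell by 1.27 ± 0.11 (edgeR adjusted p = 0.000271). ETS1 fell by 1.77 ± 0.17 (edgeR adjusted p = 3e-04), FOXQ1 by 1.06 ± 0.13 (edgeR adjusted p = 0.000893) and ETS2, which ERK activates, by 0.93 ± 0.14 (edgeR adjusted p = 0.00181). FOXP3, known from regulatory T cells, had 13 and 19 counts at 480 µg/ml and 0 in both untreated libraries, at least 5.07-fold higher when 3 counts are allowed in each untreated library, and no test is given for it. The relatives that fell at 240 µg/ml were 5, ETS1, ETS2, ETV6, FOXM1 and FOXQ1, and 0 rose, beside 5.17% and 5.16% of all genes.

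Noncoding genes beside or across the 10 gave no call. Of 9 listed 7 were in the tables and 5 were tested, with a median of -0.34 at 480 µg/ml. SOX9-AS1, which overlaps SOX9 on the opposite strand, stood at -0.76 ± 0.34 (edgeR adjusted p = 0.129), and LINC00261, which lies 2363 bases from FOXA2, at -0.34 ± 0.19 (edgeR adjusted p = 0.218). GATA6-AS1 stood at 0.10 ± 0.13 (edgeR adjusted p = 0.574), and SOX2-OT, the transcript unit that SOX2 lies in, at 0.24 ± 0.42 (edgeR adjusted p = 0.703). The libraries were made with a stranded kit, but the strand counted is not given in the sources used here, so reads of overlapping genes may be shared. In GENCODE, AL132857.1 also overlaps NKX2-1 on the same strand, as do the protein-coding genes AL121722.1 for FOXA2 and AC097634.4 for FOXP1. Their reads were not examined.

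Likeness of pattern over the 8 libraries was described by Pearson's r of log2 CPM among 9471 protein-coding candidates. The libraries share doses, so such values largely follow the dose series. ETV4 was most like PPRC1 and RAB11FIP4, both at 0.997, and ETV5 was most like ROR1 at 0.991 and CNTNAP2 at 0.990. SOX9 was most like CHN2 at 0.995 and SHCBP1 at 0.992, and SOX2 was most like GINS4 at 0.986 and ASB1 at 0.968. NKX2-1 was closest to KCMF1 at 0.971 and DDX47 at 0.964, and FOXA1 to TLE3 at 0.982 and EFEMP1 at 0.968. FOXA2 had lower best values, 0.933 with MRM3 and 0.896 with CELSR1, as had GATA6, 0.917 with TLE1 and 0.880 with PRR15. FOXP1 and FOXP2 were among each other's closest 2 at 0.980, beside RAB33B at 0.978 for FOXP1 and ARSK at 0.982 for FOXP2.

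At the genome level the 10 genes lie on 6 chromosomes, by GENCODE annotation of build GRCh38. NKX2-1 (chr14:36516392-36521149) and FOXA1 (chr14:37589984-37596059) both lie on the minus strand of chromosome 14, 1068835 bases apart. They moved in opposite directions at 240 µg/ml, though only FOXA1 was called there. ETV4 lies at chr17:43527844-43579620 and SOX9 at chr17:72121020-72126420, and SOX2, at chr3:181711924-181714436, ETV5, at chr3:186046308-186110318, and FOXP1, at chr3:70952817-71583993, are all on chromosome 3. FOXA2 is at chr20:22581005-22585455, GATA6 at chr18:22169443-22202528 and FOXP2 at chr7:114086327-114693772. FOXP1 and FOXP2 are the longest, at 631177 and 607446 bases, against 2513 bases for SOX2, the shortest.

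**Figure D5:**
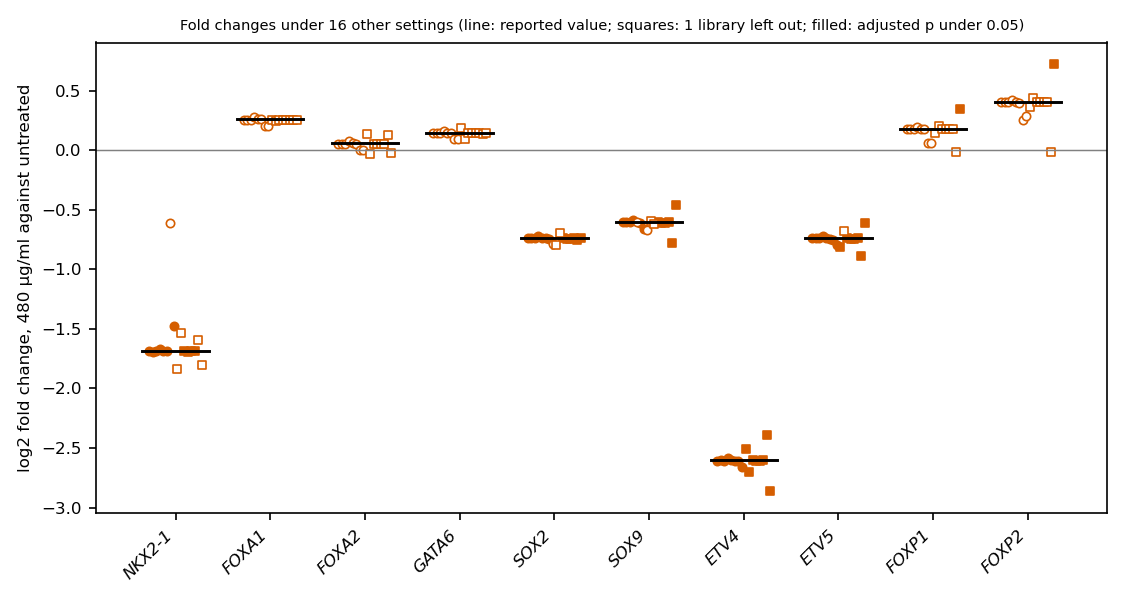
Log2 fold change at 480 µg/ml against untreated for each gene (vertical axis) under 16 other settings, with a line for the reported value, circles for other methods, squares for fits with 1 library left out, and filled points for an adjusted p under 0.05. ETV4 is filled in all 16, between -2.86 and -2.39; FOXP1 and FOXP2 lie on either side of 0 depending on which library of 480 µg/ml is left out; and the open circle at -0.61 for NKX2-1 is limma on log2(TPM + 1).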

How the data were processed

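Total RNA libraries (stranded mRNA kit, per the labels) were summarised by the authors as whole-number counts, TPM and FPKM per gene symbol. Per the submitters' processing notes, Trimmomatic, HISAT2, Bowtie2, StringTie and build GRCh38 (hg38) were used; versions, annotation release and the strand counted are not given in the sources used here. The counts were deposited raw; the deposited TPM values are scaled to a common total; the deposited FPKM values were not used. Of 46427 symbols, 42656 matched RefSeq.

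Counts were tested with edgeR 4.0.16 in R 4.3.3: filterByExpr (minimum count 10, total 15), TMM factors, and a quasi-likelihood test from 1 fit of all 8 libraries by group without covariates. P-values were adjusted by Benjamini-Hochberg over 18303 genes, with a threshold of 0.05. SE is the log2 fold change divided by the square root of F; residual degrees of freedom were 4 and prior ones 4.97, and intervals are at 95%. The method was tested on simulated data in which all groups had the same spread. The wider spread between the 480 µg/ml libraries was not simulated. CPM used effective library sizes. With 2 libraries a group of unstated independence, p-values rest on the spread between such libraries, pooled over all groups and moderated across genes. That spread may be only technical. A count of 0 allows up to 3 counts, 0.0438 to 0.0576 CPM, for counting error only. Each dose was compared with untreated cells, 240 with 24 and 480 with 240 µg/ml, so 5 comparisons; those with untreated cells share its 2 libraries. Alternatives were RLE factors, DESeq2 1.42.0, no filter, a stricter filter (50 counts in 2 libraries), limma 3.58.1 on log2(TPM + 1) and on log2(TPM + 0.1), a block for replicate number, a fit of only the groups compared, and fits that omit 1 library.

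The genes and lists were chosen with earlier results of these data known. From each other list the text names up to 4 tested genes with the smallest p at 480 µg/ml and the leading gene of the opposite direction; further names (SFTA3, SCGB3A2, FGFR2, TFCP2L1, ETV6, SOX1, SOX3, CEBPA, LPCAT1, CDH17, LGALS4, FABP1, overlapping genes) were chosen after their values were seen. NES and TUBB3 were also chosen after their values were seen. The 2 most alike genes were sought among tested protein-coding genes averaging at least 3 in log2 CPM, using a prior count of 2. Marker lists for type 1, secretory, thyroid and mesenchymal cells are given with the limits.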

Additional observations from a re-analysis of the deposited data

How the results depend on the processing

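Of the single-gene values under 16 other settings, 710 kept direction and side of the threshold, 36 lost the call, 26 gained one and 28 changed sign. Counts of the 10 genes called at 24 µg/ml stayed 0 throughout. With 1 library left out, the lone library of an arm is assumed to vary like the other groups; calls then ranged from 0 to 4 of the 10 at 240 µg/ml, 1 to 6 at 480 µg/ml, 0 to 4 between 240 and 24 µg/ml and 0 to 3 between 480 and 240 µg/ml, and all genes called from 0 to 24 at 24, 120 to 4982 at 240, 2248 to 7889 at 480 µg/ml, 0 to 4630 between 240 and 24 µg/ml and 0 to 1471 between 480 and 240 µg/ml.

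DESeq2 called 36 genes at 24 µg/ml, 320 between 480 and 240 µg/ml, and 2 of the 10 between 240 and 24 µg/ml. Without a filter 83 genes were called at 24 µg/ml, 2907 at 240 µg/ml, 2375 between 240 and 24 µg/ml (2 of the 10) and 465 between 480 and 240 µg/ml; the stricter filter gave 2 of the 10 between 240 and 24 µg/ml. With only the groups compared, 14 genes were called at 24 µg/ml, 5399 at 240 µg/ml (6 of the 10), 2858 at 480 µg/ml, 4341 between 240 and 24 µg/ml (2 of the 10), and 0 between 480 and 240 µg/ml (0 of the 10). With limma on log2(TPM + 1), 1 of the 10 was called at 240 µg/ml and 0 between 480 and 240 µg/ml, where 0 genes were called. With log2(TPM + 0.1), 3 genes were called at 24 µg/ml, 876 at 240 µg/ml (1 of the 10), 294 between 240 and 24 µg/ml, 3 between 480 and 240 µg/ml (0 of the 10), and 3 of the 10 at 480 µg/ml. The causes were not tested.

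Over all genes tested, same-numbered libraries did not deviate together (correlations of -0.0797 to 0.0449). That cannot show whether they shared a culture or batch, since an effect on few genes would hardly move such values. With replicate number as a block, 1 of the 10 was called at 240 µg/ml, 5 at 480 µg/ml, 1 between 240 and 24 µg/ml and 0 between 480 and 240 µg/ml, with 621 of all genes between 240 and 24 µg/ml and 8 between 480 and 240 µg/ml.

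Changes of sign concerned values that were not called. With limma on TPM + 1 and TPM + 0.1, FOXP1 stood at -0.0081 and -0.0083 at 240 µg/ml and at -0.147 and -0.15 between 240 and 24 µg/ml, and GATA6 at -0.0815 and -0.0822 between 240 and 24 µg/ml. With a library left out, values at 24 µg/ml ranged from -0.89 to 0.46 for NKX2-1, -0.0033 to 0.12 for FOXA1, -0.0053 to 0.0908 for SOX2, -0.0606 to 0.135 for ETV4, -0.0645 to 0.0734 for ETV5, -0.036 to 0.0657 for FOXP1 and -0.104 to 0.0281 for FOXP2. At 480 µg/ml they ranged from -0.0292 to 0.135 for FOXA2, -0.0178 to 0.349 for FOXP1 and -0.0107 to 0.726 for FOXP2. Between 240 and 24 µg/ml GATA6 ranged from -0.0706 to 0.128. Between 480 and 240 µg/ml NKX2-1 ranged from -0.0591 to 0.16, GATA6 from -0.0266 to 0.0573, FOXP1 from -0.17 to 0.19 and FOXP2 from -0.32 to 0.42.

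Depth limited NKX2-1, with 15 to 87 counts, and the lung markers with few counts. Marker sums at 480 µg/ml against untreated were 30.7 to 42.9 against 55.4 to 63.5 CPM for type 1 alveolar cells, 6.24 to 9.03 against 13.1 to 14.1 CPM for secretory and ciliated cells, 3.07 to 3.23 against 3.13 to 4.63 CPM for thyroid cells, and 46.4 to 59.4 against 54.5 to 67.2 CPM for mesenchymal cells.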
